A study of Mus musculus with 16 samples.

Results

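miR-140 is a microRNA of the cartilage lineage, and its hairpin, Mir140, was followed through mouse mesenchymal stem cells that differ in their Dicer. Reads were taken as miR-140 where the whole adapter-trimmed read matched the annotated Mir140 hairpin without mismatch. The gene was 1 of 1087 hairpin names searched, and it gave 376148 reads over 16 libraries. The libraries formed 8 groups of 2: Dicer -/- cells given human Dicer (hsDicer) with the changes D1320A/D1709A (here the double mutant), D1320A alone, D1709A alone, K70A or Y971A/Y972A, Dicer -/- cells given unchanged hsDicer, Dicer -/- cells with mCherry (here KO) and Dicer f/f cells with mCherry (here WT). mCherry is a red fluorescent protein without a role in RNA processing. All cells came from the C57BL/6 strain, every group except WT lacked mouse Dicer, and the comparisons asked what each domain of Dicer contributes to the cutting of a precursor. RNA of 15 to 50 nt was sequenced, with reads of 41 nt in replicate 1 and 51 nt in replicate 2. Whether replicates were grown separately is not stated in the labels, and p-values cover only the spread between these libraries, which may be technical.

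A microRNA is cut from a hairpin by Drosha in the nucleus and then by Dicer, which removes the loop and leaves a duplex of the 5p and the 3p arm. The RNase IIIA domain of Dicer, changed in D1320A, cuts the strand of the 3p arm, and the RNase IIIB domain, changed in D1709A, cuts the strand of the 5p arm. K70A changes the helicase domain. Y971A/Y972A changes the PAZ domain, where the open end of the precursor is bound. Bases 2 to 8 of a microRNA, its seed, pair with target mRNAs, so a shift of the first base changes the seed. miR-140 is abundant in chondrocytes, the cells of cartilage, and mice without it have a shortened skeleton and cartilage that wears early.

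Mir140 lies on chromosome 8 at 107551244 to 107551313 of the plus strand in GRCm38, a hairpin of 70 nt. It sits in the ubiquitin ligase gene Wwp2 on the same strand, in the intron between exons 16 and 17 of transcript Wwp2-201 (107550136 to 107552276). It also lies within an exon of the retained-intron transcript Wwp2-206. Hairpin positions are counted from 1 at the 5′ end of Mir140. Over the reads of both WT libraries the most used ends were positions 6 and 27 for the 5p arm and 46 and 67 for the 3p arm. WT replicate 2 taken alone began its 3p arm most often at 45 (60.1%) and ended it most often at 66 (47.4%). The forms below are shown because the 3p arm had a pair of first bases, which give different seeds, and because the D1320A cells held a longer piece. Capitals mark the seed, except in the last, where they mark the 3p arm from position 46 on. The first is the RefSeq mature sequence on GRCm38.p6, chr8:107551288-107551308 of the plus strand, and the others are deposited reads written as RNA with their hairpin positions.
RefSeq miR-140-3p: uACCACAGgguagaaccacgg
3p read 45 to 66: uACCACAGgguagaaccacgga
3p read 46 to 67: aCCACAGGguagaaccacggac
3p read 46 to 68: aCCACAGGguagaaccacggaca
D1320A read 29 to 66: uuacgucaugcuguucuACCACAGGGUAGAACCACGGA
The RefSeq entry begins at position 45, and reads that begin at 46 lack its first base. Among 1678 other mature names in the RefSeq table, 1 had the seed of the position 45 form, mmu-miR-497b, and 0 had the seed of the position 46 form. The sequence of that partner, from chromosome 11, is shown to compare the seeds.
mmu-miR-497b: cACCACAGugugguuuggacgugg

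The libraries held 10331036 to 20502254 inserts of 15 nt or more, and levels are reads divided by this number, on the CPM scale. Reads of all microRNA arms made up 0.293% (KO, replicate 2) to 47.4% (WT, replicate 1) of the inserts. Replicate 1 libraries held 812 to 7156 distinct microRNA reads and replicate 2 libraries 1409 to 32976, so values are given per replicate. The hsDicer library of replicate 1 stood apart for miR-140, with 6 reads of the 5p arm beside 18573 of the 3p arm, and comparisons with hsDicer are also given without one of its libraries where that turns a value. Of the cartilage microRNAs listed with miR-140, miR-455-3p had 0 reads in all 5 mutants, at most 1.92 CPM in hsDicer and KO cells, and 97.6 and 28.5 CPM in WT cells, while miR-675 had 0 reads in every library. The 6 mesenchymal names, among them miR-143 and miR-199a, were all read in WT cells and summed to 251786 and 163734 CPM. Markers of blood, liver and pluripotent cells summed to at most 0.780 CPM in WT cells, and those of neurons, muscle and endothelium to at most 298 CPM. The other groups differed. The muscle names had 953 and 77.6 CPM in Y971A/Y972A, 707 and 75.2 in K70A and 303 and 25.6 in D1709A cells. They had 0.139 and 43.8 CPM in hsDicer and 0.231 and 112 in WT cells. Of the 3 muscle names, miR-133a and miR-1a had 0 reads in WT cells, so the WT values rest on 1 name. The pluripotent names had 59.4 and 14.9 CPM in D1709A, against 0 and 18.2 in hsDicer cells. Endothelium, a list of 1 name, had 673 and 104 CPM in K70A, against 437 and 60.1 in hsDicer cells. All these names are microRNAs, and the groups differ in the Dicer that cuts them. The mesenchymal names summed to 6193 and 1400 CPM in KO cells. In bulk RNA, a change in cutting by Dicer, fewer cells of a type and less RNA per cell cannot be told apart.

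In WT cells miR-140 was a well-read microRNA in which the 3p arm led. The 5p arm had 517 and 1286 CPM and the 3p arm 1432 and 1748 CPM in WT replicates 1 and 2, so that the 5p arm held 26.5% and 42.4% of the arm reads. The 3p arm ranked 32nd and 21st among all arms in the WT libraries, and both arms made up 0.411% and 0.809% of the microRNA reads. Over the 8 groups the 3p arm averaged 4443 ± 4082 CPM in Y971A/Y972A, 1647 ± 1292 in K70A, 1590 ± 223 in WT, 817 ± 667 in hsDicer, 95.9 ± 15.0 in D1709A, 9.22 ± 1.40 in KO, 6.70 ± 8.78 in D1320A and 1.38 ± 0.02 in the double mutant (SD, n = 2 each). In that order each group from Y971A/Y972A to WT, and from KO to the double mutant, overlapped with the next. There was no overlap between WT and hsDicer, between hsDicer and D1709A, or between D1709A and KO. For the 5p arm the means were 901 ± 544 CPM in WT, 890 ± 164 in K70A, 246 ± 62.0 in D1320A, 184 ± 260 in hsDicer, 105 ± 147 in Y971A/Y972A, 8.03 ± 6.39 in D1709A, 4.95 ± 3.99 in KO and 2.20 ± 2.85 in the double mutant (SD, n = 2 each). In this order K70A and D1320A did not overlap, and every other pair of neighbours did. Here and below, a lack of overlap only describes 2 libraries against 2. The share of all arms without overlap is not given. A 2-sided exact permutation test gives no p below 0.333 for such a separation.

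**Figure D1:**
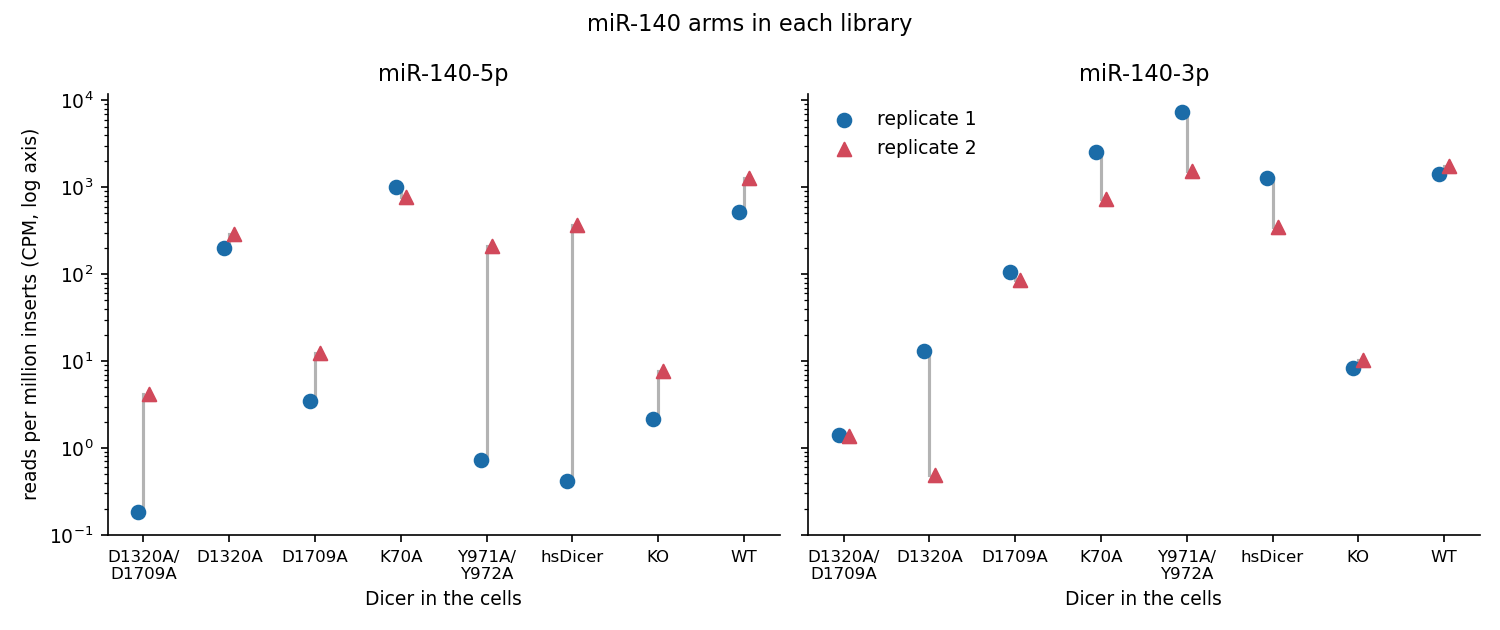
Level of miR-140-5p (left) and miR-140-3p (right) in each library, in CPM on a log axis, by the Dicer in the cells; circles are replicate 1, triangles replicate 2, and a grey line joins the 2 libraries of a group. The 3p arm was near 1.4 CPM in the double mutant and above 1400 CPM in WT cells, and the 5p arm of hsDicer was 0.416 CPM in replicate 1 and 368 CPM in replicate 2.

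Loss of Dicer left little miR-140. The 5p arm had 22 and 124 reads (2.13 and 7.77 CPM) in KO cells, against 8938 and 26361 reads (517 and 1286 CPM) in WT cells. For the 3p arm there were 85 and 163 reads (8.23 and 10.2 CPM) in KO cells, against 24775 and 35834 reads (1432 and 1748 CPM) in WT cells. The groups did not overlap for either arm. The 3p arm fell in KO cells, with a log2 change of -7.43 (SE 2.10, adjusted p = 0.0119, edgeR quasi-likelihood test), and the 5p arm had -7.51 (SE 2.87, adjusted p = 0.105). In this comparison 5.74% of the 540 arms passed, all of them lower in KO. The direction of the calls turned with the scaling, with 4 higher and 2 lower under TMM and 14 higher and 6 lower under DESeq2's own size factors. The median change over all arms was -6.95, and relative to it the 5p arm lay at -0.55 and the 3p arm at -0.48. The 3p call was lost without KO replicate 1 (-7.28, adjusted p = 0.280), without KO replicate 2 (-7.59, adjusted p = 0.319), with TMM scaling (-2.98, adjusted p = 0.941) and with DESeq2's own size factors (-0.04, adjusted p = 1), which set the median arm near 0, and under snoRNA and snRNA scaling (-8.83, adjusted p = 0.0541).

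The few KO reads differed between the replicates in their forms. In replicate 1 the KO library held the main WT forms at 0.247% of the WT reads for 6 to 27, 0.327% for 46 to 67, 0.253% for 46 to 68 and 0.413% for 45 to 66. As a measure beside this, 145 fragments without a microRNA match that had 2000 reads or more in the WT library of replicate 1, and none in any replicate 2 library, were all found in the KO library of replicate 1, at 0.234% of their WT reads. In replicate 2 the form 45 to 68 led the KO reads of the 3p arm, with 80 of 163 reads, 5.81% of its WT reads, against 0.0935% for 46 to 67. The part that carry-over of WT reads has in the KO reads was not tested. KO replicate 2 also held 47 reads (2.94 CPM) that ran from position 6 to 56 without reaching the adapter, and KO replicate 1 held 0.

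The 3p arm of miR-140 rose in KO cells given human Dicer. The 3p arm had 18573 and 6479 reads (1288 and 345 CPM) in hsDicer cells, against 85 and 163 reads (8.23 and 10.2 CPM) in KO cells. The rise passed the edgeR test, with a log2 change of 6.47 (SE 2.02, adjusted p = 0.0300), beside a median of 5.81 over all arms and 5.93% of arms called, all higher in hsDicer. Other scalings gave other directions, with 1 arm higher and 3 lower under TMM and 5 higher and 13 lower under DESeq2's own size factors. Of the 5p arm 6 and 6905 reads (0.416 and 368 CPM) were found in hsDicer cells, against 22 and 124 reads (2.13 and 7.77 CPM) in KO cells, so the groups overlapped. Its log2 change was 5.21 (SE 2.58, adjusted p = 0.301), and without hsDicer replicate 2 it was -3.55 (adjusted p = 1). The 3p call was lost without either KO library (6.32 and 6.63, adjusted p = 0.379 and 0.492), without hsDicer replicate 1 (5.22, adjusted p = 0.179), with TMM scaling (2.45, adjusted p = 1) and with snoRNA and snRNA scaling (7.76, adjusted p = 0.0857), and DESeq2's own size factors gave -0.49 (adjusted p = 1).

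Both arms had lower levels in hsDicer than in WT cells, and neither difference passed the test. The log2 change of hsDicer over WT was -2.29 for the 5p arm (SE 2.26, adjusted p = 1, interval -6.73 to 2.14) and -0.96 for the 3p arm (SE 1.60, adjusted p = 1, interval -4.10 to 2.18), by edgeR. A single library moved both values, to -1.29 (5p) and -2.20 (3p) without hsDicer replicate 1 and to -11.05 (5p) and -0.30 (3p) without hsDicer replicate 2. In this comparison 0% of arms were called by edgeR and 6 arms had an unadjusted p under 0.05. DESeq2 called 16 with its own size factors and 5 with insert scaling. The balance of the arms depended on the library. The 5p arm held 0.0323% (95% Wilson interval 0.0148% to 0.0704%) and 51.6% of the arm reads in hsDicer cells, against 26.5% and 42.4% in WT cells. The 5p to 3p ratio differed by -4.69 on the log2 scale (SE 8.66, adjusted p = 1, edgeR interaction) and, without hsDicer replicate 1, by 1.05. Of 183 hairpins tested for this ratio 0% were called, with 0 at an unadjusted p under 0.05 by edgeR, and 0 called and 4 under 0.05 by limma with a pseudocount of 0.5 (0 called and 7 under 0.05 with 5).

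In D1320A cells, whose Dicer has an altered RNase IIIA site, the 5p arm was read and the 3p arm nearly absent. The 3p arm had 195 and 6 reads (12.9 and 0.493 CPM) in D1320A cells, against 18573 and 6479 reads (1288 and 345 CPM) in hsDicer cells, without overlap. It fell by 6.93 on the log2 scale (SE 2.06, adjusted p = 0.0377, edgeR), beside a median of -0.67 over all arms and 2.04% of arms called, all lower, where DESeq2's own size factors gave 13 higher and 38 lower. Reads of the 5p arm numbered 3050 and 3527 (202 and 290 CPM) in D1320A cells, against 6 and 6905 reads (0.416 and 368 CPM) in hsDicer cells, and its log2 change was 0.42 (SE 2.16, adjusted p = 1, interval -3.82 to 4.65). Of the arm reads 94.0% and 99.8% were 5p in D1320A cells, against 0.0323% and 51.6% in hsDicer cells. The 3p call was lost without D1320A replicate 1 (-10.67, adjusted p = 0.182), without D1320A replicate 2 (-5.98, adjusted p = 1), without hsDicer replicate 1 (-5.68, adjusted p = 0.273), with TMM scaling (-6.36, adjusted p = 0.0830) and with snoRNA and snRNA scaling (-7.62, adjusted p = 0.241). The 5p value was -0.58 without hsDicer replicate 1 (adjusted p = 1) and 9.18 without hsDicer replicate 2 (adjusted p = 0.372).

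The 3p sequence had not gone from the D1320A cells, but was read with the loop still on it. Reads that began where the 5p arm is cut off, at positions 27 to 29, and ran on through the loop into the 3p arm numbered 2729 and 2236 (181 and 184 CPM) in D1320A cells, against 0 reads in both hsDicer libraries, where 3 reads would be 0.208 and 0.160 CPM. They made up 44.8% and 38.3% of the Mir140 reads in D1320A cells. Elsewhere they numbered 1 and 2 in D1709A, 0 and 24 in K70A, 1 and 0 in WT, and 0 in the double mutant, Y971A/Y972A and KO cells. In D1320A replicate 2 the leading form was 29 to 66, the 38 nt read printed above, with 1697 of 2236 reads.

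Read length limited this count in replicate 1, where an insert of more than 36 nt leaves fewer than 5 adapter bases. Reads of D1320A replicate 1 that matched the hairpin up to a last stretch of 1 to 4 adapter bases, a reading chosen after the data were seen, added 5390 reads, of which 4666 were again 29 to 66. With them the loop and 3p piece had 8119 reads (538 CPM) in replicate 1, 266 per 100 reads of the 5p arm, against 89.5 without them and 63.4 in replicate 2, where they added 0 reads. In replicate 1 the reads 28 to 68 and 29 to 69 may also be 28 to 67 and 29 to 67 with adapter bases equal to those of the hairpin, so their last base is uncertain. Among 120 hairpins compared, 54 and 58 gave 20 or more such reads in the D1320A libraries, and Mir140 ranked 9th and 6th by their number, or 4th and 6th with the reads of 1 to 4 adapter bases. Without those added reads, the median per 100 reads of the 5p arm was 2.35 over 97 hairpins in D1320A replicate 1 and 21.3 over 80 in replicate 2, where Mir140 ranked 11th and 22nd. No read of the free loop was found in any library.

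That piece began mostly at 28 and 29, next to 5p ends at 27 and 28, but many 5p reads ended further back, at 26 or 25. In D1320A replicate 2 the piece began at 29 in 83.8% and at 28 in 16.2% of its reads, and in replicate 1 at 29 in 48.4%, at 28 in 46.7% and at 27 in 4.95%. With the 5390 added reads, most of them 29 to 66, the shares in replicate 1 were 74.5% at 29, 21.2% at 28, 1.66% at 27 and 2.66% at 30. The 5p arm ended at 28 in 30.6% and 24.5%, at 27 in 24.1% and 22.1%, at 26 in 34.3% and 41.4% and at 25 in 10.1% and 12.02% of its reads in D1320A cells. A shorter group of reads, 116 and 43 in number, held the 3p arm with only part of the loop.

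**Figure D2:**
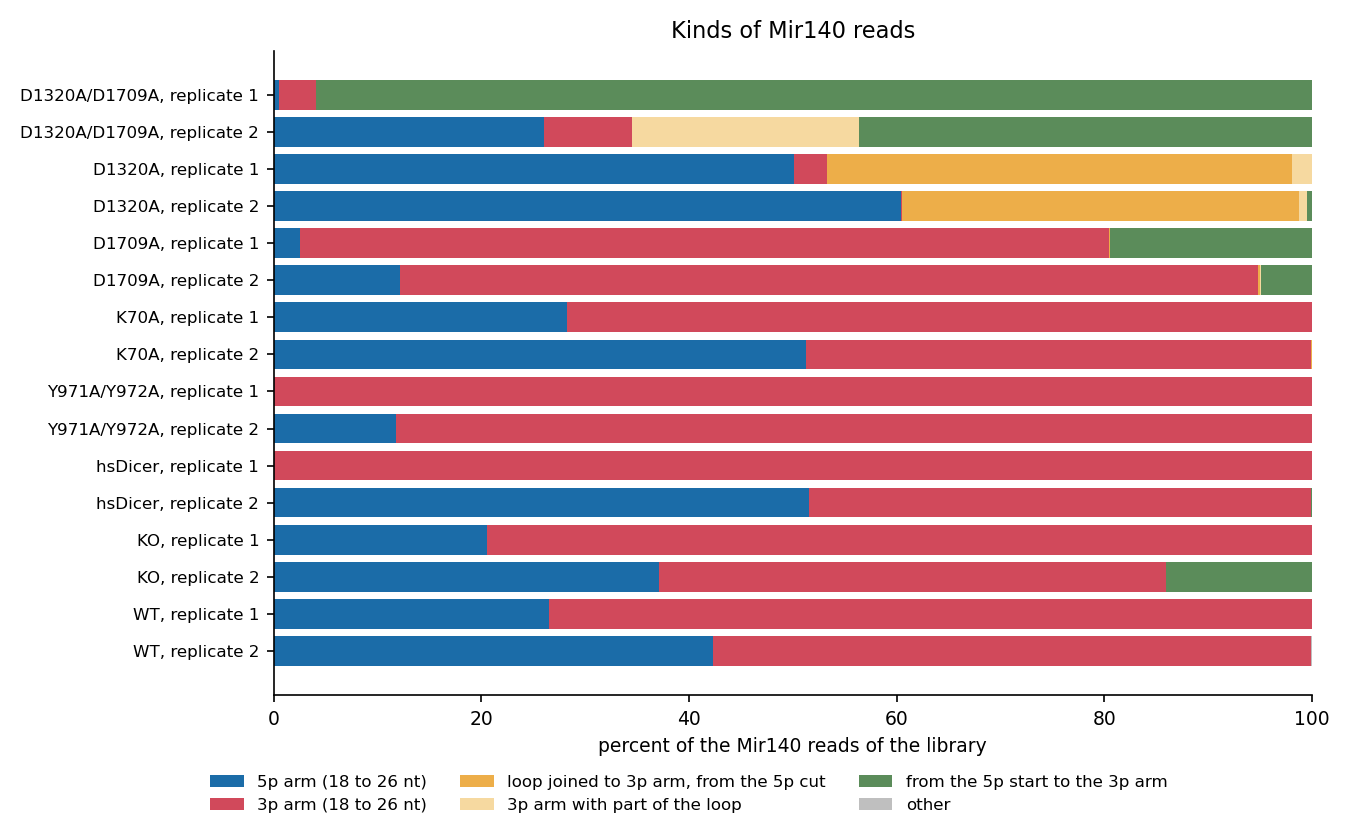
Share of each kind of read among all Mir140 reads of a library, in percent. Stacked bars run from top to bottom by Dicer and replicate. Reads that matched the hairpin over their whole length without reaching the adapter are in the bars. They include all reads from the 5p start into the 3p arm. Reads that matched the hairpin only up to a last stretch of fewer than 5 adapter bases are not in the bars. The orange part, loop joined to the 3p arm, was 44.8% and 38.3% in D1320A, and the green part, from the 5p start into the 3p arm, was 95.9% and 43.6% in the double mutant and 19.4% and 4.87% in D1709A.

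In D1709A cells, whose Dicer has an altered RNase IIIB site, the balance was the other way. Reads of the 3p arm numbered 1363 and 883 (106 and 85.3 CPM) in D1709A cells, against 18573 and 6479 reads (1288 and 345 CPM) in hsDicer cells. Those of the 5p arm numbered 45 and 130 (3.52 and 12.6 CPM) in D1709A cells, against 6 and 6905 reads (0.416 and 368 CPM) in hsDicer cells. The 3p libraries did not overlap and the 5p libraries did. Neither change passed the edgeR test, with -4.52 for the 5p arm (SE 2.50, adjusted p = 0.558) and -3.09 for the 3p arm (SE 1.72, adjusted p = 0.558) on the log2 scale, beside a median of -2.20 and 3.33% of arms called, all lower. DESeq2's own size factors turned the direction of the calls, with 30 arms higher and 2 lower, and TMM gave 1 higher and 3 lower. Without hsDicer replicate 2 the 5p change was 4.24 (adjusted p = 0.916), and DESeq2's own size factors gave 0.67 for the 5p and 2.91 for the 3p arm.

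Reads of an uncut 5p strand were found in D1709A cells. Reads from the 5p start into the 3p arm numbered 340 and 52 (26.6 and 5.02 CPM) in D1709A cells, against 1 and 8 (0.0694 and 0.426 CPM) in hsDicer cells. In replicate 1 these were reads of 6 to 46 that filled the 41 nt, and as position 46 and the first adapter base are both A, they may also be molecules of 6 to 45. In replicate 2 they ran from 6 to 56 and so past both Dicer sites. Replicate 2 of D1320A, KO and WT cells held 27, 47 and 11 such reads. Of 120 hairpins 37 and 42 had 20 or more such reads in D1709A cells, where Mir140 ranked 16th and 35th. In hsDicer cells 4 and 69 hairpins had as many. The 5p arm joined to the loop alone was found only by the reading with 1 to 4 adapter bases, as 542 reads of 6 to 43 (42.3 CPM, 39.8 per 100 reads of the 3p arm) in D1709A replicate 1, and 0 in D1709A replicate 2, where such inserts are seen whole. With that reading 25 of 120 hairpins had 20 or more reads of this kind in D1709A replicate 1 and 20 in replicate 2.

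With both sites altered, few reads of the miR-140 arms were found. The 3p arm had 23 and 26 reads (1.40 and 1.37 CPM) in the double mutant, against 18573 and 6479 reads (1288 and 345 CPM) in hsDicer cells. It fell by 9.20 on the log2 scale (SE 2.27, adjusted p = 0.00208, edgeR), beside a median of -5.98 over all arms and 7.96% of arms called, all lower. With DESeq2's own size factors 35 arms were called higher and 2 lower, and with TMM 1 higher and 0 lower. For the 5p arm there were 3 and 80 reads (0.182 and 4.21 CPM) in the double mutant, against 6 and 6905 reads (0.416 and 368 CPM) in hsDicer cells, and its change was -6.38 (SE 2.73, adjusted p = 0.152). Without hsDicer replicate 2 the 5p change was 2.38 (adjusted p = 1). The 3p call was lost without either library of the double mutant (-9.21 and -9.18, adjusted p = 0.0825 and 0.0795), with TMM scaling (-3.98, adjusted p = 0.666) and with DESeq2's own size factors (-0.44, adjusted p = 1).

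Reads from the 5p start through the loop were the most numerous kind of Mir140 read in both libraries of the double mutant. They numbered 613 and 134 (37.2 and 7.05 CPM) in the double mutant, against 1 and 8 (0.0694 and 0.426 CPM) in hsDicer cells, and made up 95.9% (95% Wilson interval 94.1% to 97.2%) and 43.6% (38.2% to 49.2%) of its Mir140 reads. As in D1709A, the reads of replicate 1 end at 46 or 45, and those of replicate 2 at 56 or 55, at the last base sequenced, so the 3′ end of the molecule was not seen. By this count Mir140 ranked 10th and 31st of 120 hairpins in the double mutant, of which 10 and 65 had 20 or more such reads. As many were held by 4 and 69 hairpins in hsDicer, 4 and 75 in KO and 0 and 39 in WT cells. Over all hairpins such reads were thus not particular to the double mutant in replicate 2. In replicate 2 a further 67 reads, 39 to 66, held the 3p arm with part of the loop, and 66 of the 80 reads of the 5p arm were the form 6 to 25.

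**Figure D3:**
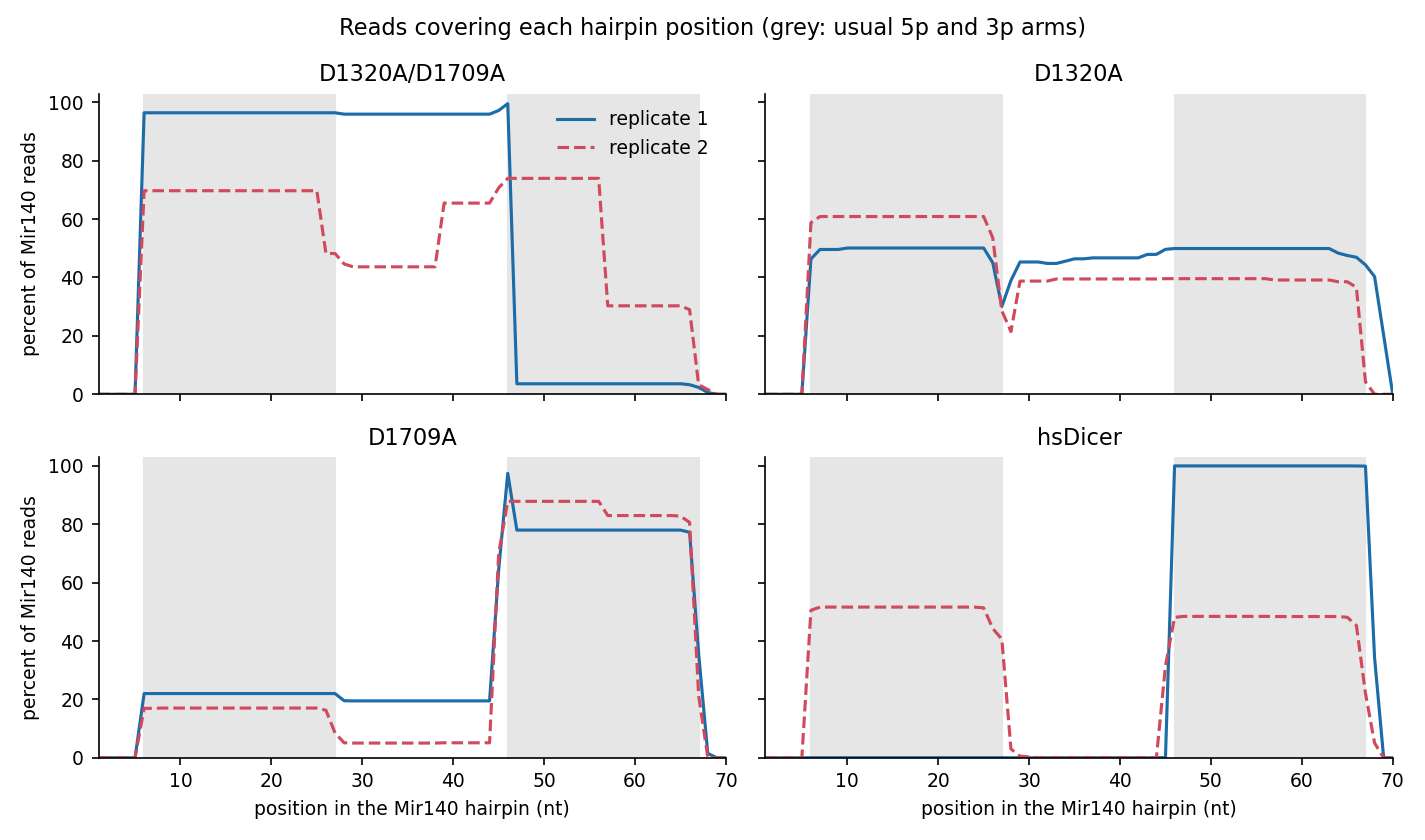
Percent of the Mir140 reads of a library that cover each hairpin position (x axis, nt from the 5′ end), for D1320A/D1709A, D1320A, D1709A and hsDicer; blue lines are replicate 1, red broken lines replicate 2, and grey bands are positions 6 to 27 and 46 to 67. Reads cross the loop in the mutants and hardly in hsDicer, and the fall after 46 and 56 in the double mutant is where the reads of 41 and 51 nt end.

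Set directly against each other, the single RNase III mutants had opposite arms. miR-140-5p had 202 and 290 CPM in D1320A cells, against 3.52 and 12.6 CPM in D1709A cells. miR-140-3p had 12.9 and 0.493 CPM in D1320A cells, against 106 and 85.3 CPM in D1709A cells. Neither arm overlapped between the groups, which for 2 libraries against 2 is a description only. By edgeR the log2 change of D1320A over D1709A was 4.93 for the 5p arm (SE 2.55, adjusted p = 0.501) and -3.84 for the 3p arm (SE 1.78, adjusted p = 0.397), and 2.04% of arms were called, 7 higher and 4 lower. Under TMM the calls were 0 higher and 5 lower. DESeq2 with its own size factors gave -7.27 for the 3p arm (adjusted p = 1.70e-05), 1 of 101 arms that it called, 18 higher and 83 lower. The 5p share was 94.0% and 99.8% in D1320A cells, against 3.20% and 12.8% in D1709A cells, a difference of 8.87 and 11.84 in log2 of the 5p to 3p ratio in replicates 1 and 2.

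The ratio test is the one that weighs both arms at once. The 5p to 3p ratio of D1320A over D1709A was 10.37 on the log2 scale (SE 5.23, unadjusted p = 0.0474, adjusted p = 0.261, edgeR interaction over 183 hairpins), where the median hairpin had 9.44 and 33 hairpins had an unadjusted p under 0.05. By edgeR 0% of hairpins were called, while limma on log2 ratios called 48 with a pseudocount of 0.5 and 51 with 5, all higher in D1320A, with miR-140 at an adjusted p of 0.0718 with 0.5. For D1320A over hsDicer the ratio was 12.19 (SE 7.13, adjusted p = 0.773), 6.44 without hsDicer replicate 1 and 18.10 without hsDicer replicate 2. By edgeR 0% were called and 11 hairpins had an unadjusted p under 0.05, and limma called 10 and 11 with pseudocounts of 0.5 and 5. For D1709A over hsDicer it was 1.81 (SE 10.35, adjusted p = 1), and -3.93 without hsDicer replicate 1, with 0% called and 3 at an unadjusted p under 0.05 by edgeR, and 0 and 14 called by limma with pseudocounts of 0.5 and 5. For the double mutant over hsDicer it was 5.08 (SE 9.05, adjusted p = 1), and -0.66 without hsDicer replicate 1, with 0% called and 0 under 0.05 by edgeR, and 0 and 3 called by limma with pseudocounts of 0.5 and 5.

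Both arms of miR-140 were read in the helicase mutant. The 5p arm had 14890 and 10757 reads (1006 and 774 CPM) in K70A cells, against 6 and 6905 reads (0.416 and 368 CPM) in hsDicer cells. For the 3p arm there were 37887 and 10197 reads (2561 and 734 CPM) in K70A cells, against 18573 and 6479 reads (1288 and 345 CPM) in hsDicer cells. Only the 3p arm overlapped. The log2 changes were 2.27 for the 5p arm (SE 2.26, adjusted p = 1, interval -2.16 to 6.71) and 1.01 for the 3p arm (SE 1.60, adjusted p = 1, interval -2.13 to 4.16), by edgeR, and the 3p change was -0.15 without K70A replicate 1. By edgeR 0% of arms were called and 2 had an unadjusted p under 0.05. DESeq2 called 14 with its own size factors and 1 with insert scaling. The 5p share was 28.2% and 51.3% in K70A cells, against 0.0323% and 51.6% in hsDicer cells, and the ratio differed by 5.02 (SE 8.50, adjusted p = 1; 0% called and 0 under 0.05 by edgeR, 0 called by limma with either pseudocount), or by -0.73 without hsDicer replicate 1.

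In the PAZ mutant the 3p arm lay above its level in hsDicer cells in both replicates, a difference that did not pass the test, and the 5p arm was nearly unread in replicate 1 only. Reads of the 3p arm numbered 129501 and 25392 (7329 and 1557 CPM) in Y971A/Y972A cells, against 18573 and 6479 reads (1288 and 345 CPM) in hsDicer cells, without overlap. The 5p arm had 13 and 3399 reads (0.736 and 208 CPM) in Y971A/Y972A cells, against 6 and 6905 reads (0.416 and 368 CPM) in hsDicer cells, with overlap. The 3p arm ranked 7th and 8th of all arms in Y971A/Y972A cells, against 38th and 44th in hsDicer cells. By edgeR the log2 changes were -0.82 for the 5p arm (SE 2.17, adjusted p = 1, interval -5.07 to 3.44) and 2.44 for the 3p arm (SE 1.67, adjusted p = 1, interval -0.84 to 5.72). With 1 library left out, the 3p change ran from 0.93 (without Y971A/Y972A replicate 1) to 3.69 (without hsDicer replicate 1). The 5p change was 0.18 without Y971A/Y972A replicate 1 and 7.94 without hsDicer replicate 2, and DESeq2's own size factors gave 0.49 for the 5p arm. By edgeR 0% of arms were called and 12 had an unadjusted p under 0.05. DESeq2 called 24 with its own size factors and 16 with insert scaling.

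The 5p share was 0.0100% (95% Wilson interval 0.00587% to 0.0172%) and 11.8% in Y971A/Y972A cells, against 0.0323% and 51.6% in hsDicer cells. The ratio differed by -2.41 on the log2 scale (SE 13.70, adjusted p = 1; 0% called and 1 hairpin under 0.05 by edgeR, 0 called by limma with either pseudocount), by 2.75 without Y971A/Y972A replicate 1 and by 3.53 without hsDicer replicate 2. In both groups the library of replicate 1 held almost no 5p reads, while the replicate 1 libraries of K70A and WT cells held 14890 and 8938. K70A and Y971A/Y972A cells had 0 reads from the 5p start into the 3p arm.

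The 3p arm began at a pair of neighbouring bases, 45 and 46, and the share of each varied between libraries of a group. Reads that began at 46 made up 75.2% and 38.4% of the 3p reads in WT cells, and almost all others began at 45. In Y971A/Y972A cells only 15.9% and 6.02% began at 46, against 99.9% and 34.3% in hsDicer cells, without overlap. That difference of -56.2 percentage points had p = 0.333 in a 2-sided exact permutation test, the smallest that 2 against 2 libraries can give. The share was 28.7% and 45.9% in K70A, 42.4% and 21.6% in D1709A, and 65.2% and 38.5% in the double mutant, each overlapping with hsDicer (exact permutation p = 0.667, 0.667 and 1). In KO cells it was 67.1% and 6.13%. D1320A replicate 1 had 8.72% at 46, 53.8% at 45 and 36.9% at 43, among 195 reads, and D1320A replicate 2 had too few reads.

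Over 21 hairpins with 20 or more 3p reads in each of 8 libraries, the median share at the usual first base was 92.5% to 100%. In the Y971A/Y972A libraries that median was 100% and 95.4%. The lower quartile of the share was 93.6% and 72.8% in Y971A/Y972A, 88.7% and 84.7% in hsDicer, 99.1% and 85.9% in K70A and 72.1% and 86.7% in WT cells. Mixed first bases were thus not limited to miR-140. The form 45 to 65, of 21 nt and equal to the RefSeq sequence, had 41571 and 8151 reads in Y971A/Y972A cells, against 4 and 345 reads in hsDicer cells. Position 65 ended 32.1% and 33.8% of the 3p reads in Y971A/Y972A, 0.0215% and 5.74% in hsDicer and 0.0242% and 7.41% in WT cells. It also ended 31.9% of 163 reads in KO replicate 2 and 18.5% of 195 in D1320A replicate 1. In replicate 2 of the double mutant it ended 15.4% of 26 reads, and in K70A replicate 2 14.3%. The form 46 to 67 had 14361 and 406 reads in Y971A/Y972A cells, against 12190 and 1610 reads in hsDicer cells. The 3p arm ended at 67 in 16.7% and 2.49% of its reads in Y971A/Y972A cells, against 65.6% and 35.2% in hsDicer cells (difference -40.8 percentage points, exact permutation p = 0.333).

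**Figure D4:**
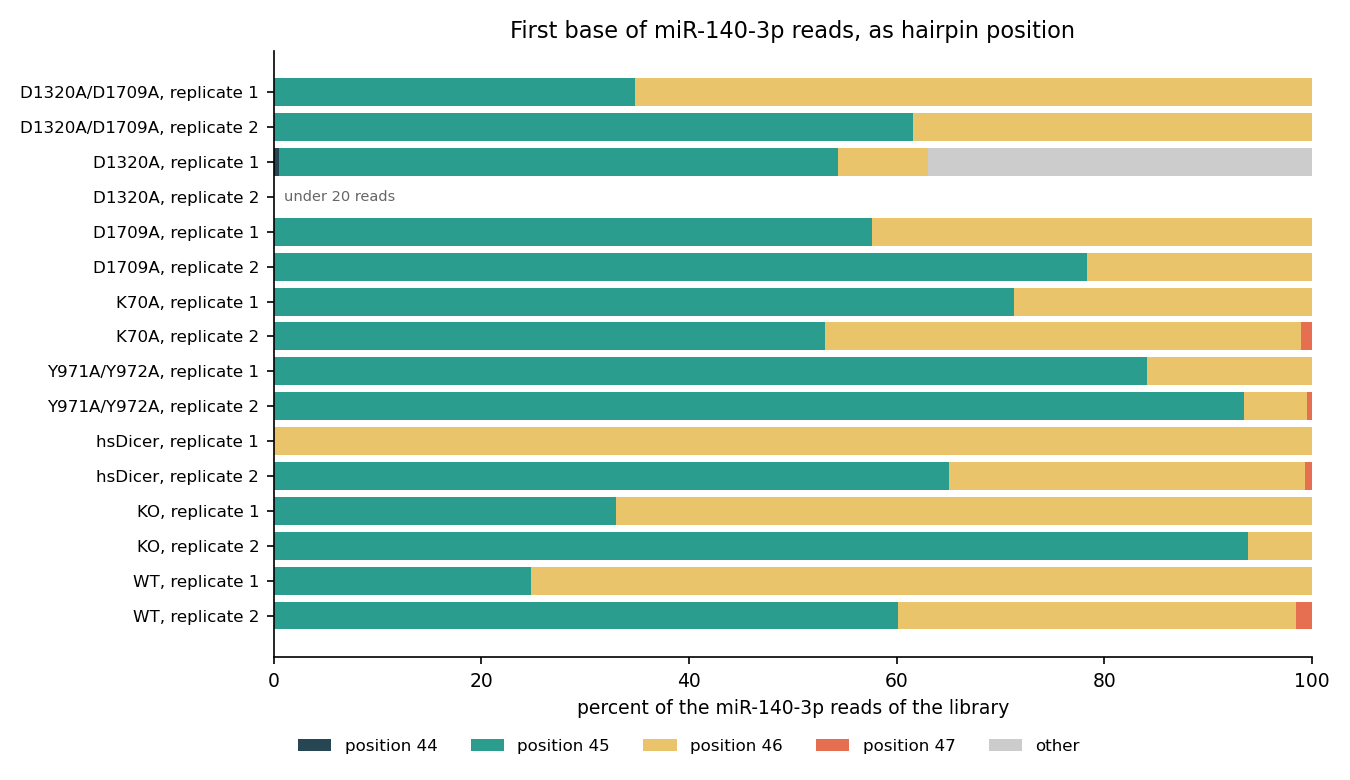
First base of miR-140-3p reads as hairpin position, in percent of the 3p reads of each library, as stacked bars from top to bottom by Dicer and replicate; libraries with under 20 reads have no bar. Position 45 leads in both Y971A/Y972A libraries (84.1% and 93.5%), and position 46 in hsDicer replicate 1 (99.9%) and WT replicate 1 (75.2%).

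The first base of the 5p arm hardly varied and its last base did. Position 6 began 92.5% to 100% of the 5p reads in every library with 20 or more of them. Position 27 ended 24.1% and 22.1% of them in D1320A cells, against 72.9% in hsDicer replicate 2, where hsDicer replicate 1 had only 6 reads, all ending at 27. In K70A cells the share at 27 was 99.9% and 76.3%, and in WT cells 99.7% and 68.3%. D1709A cells had 97.8% and 28.5%, with 63.8% at 26 in replicate 2. Y971A/Y972A replicate 2 had 59.7%. These shares were not tested against hsDicer, which had 1 library with enough reads. With 2 libraries against 1, a 2-sided exact permutation test cannot reach even the 0.333 of 2 against 2.

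**Figure D5:**
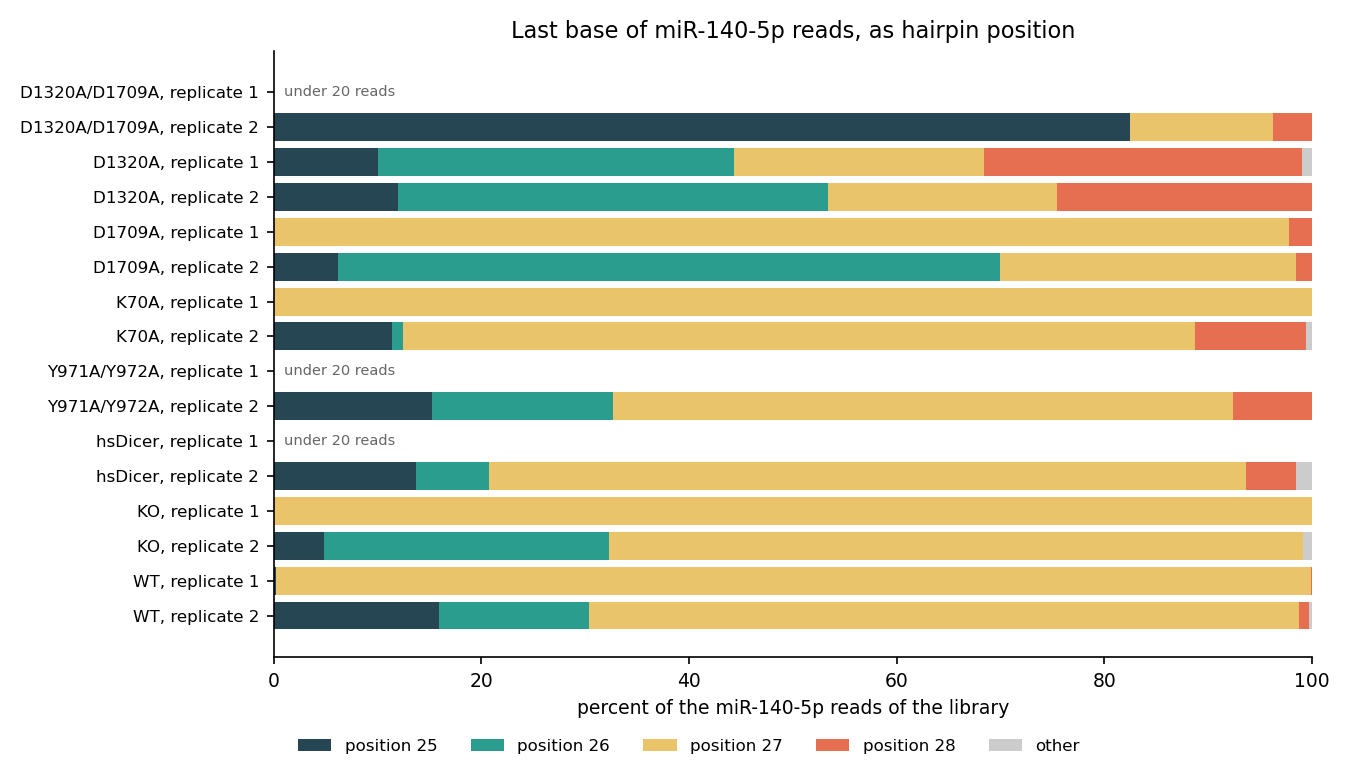
Last base of miR-140-5p reads as hairpin position, in percent of the 5p reads of each library, as stacked bars from top to bottom by Dicer and replicate; libraries with under 20 reads have no bar. Both D1320A libraries spread over 25 to 28, with 24.1% and 22.1% at 27, while 27 alone made up 99.9% and 99.7% in replicate 1 of K70A and WT.

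The arms of other hairpins most like miR-140 in level over the 16 libraries were named by the correlation of log2(CPM + 1) among 200 arms with 10 CPM or more on average, as a description, since all share the same libraries and the same low groups. For the 5p arm they were miR-497-5p (r = 0.972), miR-872-5p (0.888), miR-1198-5p (0.877), miR-34a-5p (0.839) and miR-23a-3p (0.818), where the median arm had 0.464. For the 3p arm they were miR-29a-3p (r = 0.952), miR-92-3p (0.949), miR-320-3p (0.949), miR-126a-3p (0.943) and miR-423-3p (0.929), where the median arm had 0.424.

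A list of 24 cartilage and skeletal microRNAs, with 39 arms that could be tested, stands beside miR-140. In KO against WT cells 6 of the 39 arms (15.4%, against 5.74% of all arms) fell and 0 rose, with a list median of -7.70 against -6.95 over all arms. The fallen arms included miR-29b-3p (-7.71, SE 1.08, adjusted p = 2.77e-10, edgeR), which targets collagen mRNAs, and miR-143-3p (-8.05, SE 2.15, adjusted p = 0.00650), a microRNA of smooth muscle and mesenchymal cells. In hsDicer against KO cells 5 (12.8%, against 5.93%) rose and 0 fell, with a median of 6.27 against 5.81. In D1320A against hsDicer cells 4 (10.3%, against 2.04%) fell and 0 rose, all of them 3p arms, namely miR-29b-3p (-8.87), miR-143-3p (-7.97), miR-214-3p (-8.98) and miR-27b-3p (-11.45). In D1709A against hsDicer cells 2 (5.13%, near the 3.33% of all arms) fell and 0 rose, both of them 5p arms, miR-26a-5p (-7.63) and miR-30a-5p (-7.42). The double mutant had 7 lower (17.9%, against 7.96%) and 0 higher against hsDicer, and hsDicer against WT, K70A and Y971A/Y972A had 0 in either direction by edgeR. Between D1320A and D1709A 1 arm was higher, miR-26a-5p (5.16, adjusted p = 0.0326), and 1 lower, miR-29b-3p (-7.38, adjusted p = 1.20e-09), together 5.13% against 2.04% of all arms.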

How the data were processed

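The files deposited by the authors hold counts, the number of times each distinct untrimmed read was seen. Which tools made them is not given in the sources used here. Per the labels' protocols, RNA was taken with Trizol and size-selected on a gel. The adapter named in the labels was trimmed at a match of 12 bases, or of at least 5 at the read end, which shows inserts whole if they are at most 36 nt (replicate 1) or 46 nt (replicate 2). Library size was the number of inserts of at least 15 nt. Perfect matches of 18 to 26 nt to 1174 GENCODE M21 hairpins were counted, with the arm set by the centre of the read. Longer reads were matched to Mir140 whole.

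Tests were edgeR 4.0.16 quasi-likelihood fits (R 4.3.3) over all 16 libraries and 540 arms with 20 reads or more, or 183 hairpins for the 5p to 3p ratio (arm by group interaction), with Benjamini-Hochberg adjusted p under 0.05. The common biological coefficient of variation was 2.10. Standard errors are approximate, and intervals are 1.96 SE to each side. Single values were compared by exact permutation. Shares of libraries with 1000 reads or more have 95% Wilson intervals of at most 2.62 percentage points to each side. Intervals and floors (3 reads) cover counting error only. Usual ends are the most used over both WT libraries, and end shares need 20 reads. Alternatives used DESeq2 1.42.0, limma 3.58.1 (pseudocounts 0.5 and 5), TMM, snoRNA and snRNA reads, looser matching and each library left out. The fits were also run on simulated counts, for the ratio with far less spread than the common coefficient of variation above. No result here rests on those runs. Counting, shares and plots used Python 3.11.15 (scipy 1.17.1, pandas 2.3.3, numpy 2.4.6, matplotlib 3.10.9). Named were miR-140 with both arms, the 5 arms most like each, and called list arms with the highest mean CPM. The members, lists and tests were chosen with earlier results of these data known. RefSeq gave the mature sequences (GRCm38.p6) by name. No RefSeq entry for the 5p arm was used here.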

Additional observations from a re-analysis of the deposited data

How the results depend on the processing

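Of 198 values of levels under other settings, 161 kept their direction and side of the threshold, 19 lost and 4 gained a call, and 14 changed sign. The cause was not tested in any of these. TMM scaling gave, for the 3p arm, -2.98 in KO against WT, 2.45 in hsDicer against KO, -6.36 in D1320A and -3.98 in the double mutant against hsDicer, none called. snoRNA and snRNA scaling gave -8.83, 7.76 and -7.62 for the first 3 of these, not called, and 0.048 for the 5p arm in Y971A/Y972A against hsDicer. DESeq2's own size factors, which centre the median arm at 0, gave -0.039 for the 3p arm in KO against WT and -0.44 in the double mutant, not called; reversed 5p values of -0.84 (hsDicer against KO), 0.67 (D1709A), 0.39 (double mutant) and 0.49 (Y971A/Y972A); reversed 3p values of -0.49 (hsDicer against KO) and 2.91 (D1709A); and a called 3p value of -7.27 in D1320A against D1709A. DESeq2 with insert scaling called the 5p arm in KO against WT (-7.51, adjusted p = 0.00760) and in the double mutant (-6.39, adjusted p = 0.0247). The arms called by edgeR, by DESeq2 with insert scaling and with snoRNA and snRNA scaling numbered 31, 157 and 12 in KO against WT, 32, 116 and 3 in hsDicer against KO, 11, 77 and 2 in D1320A against D1709A, and, against hsDicer, 11, 54 and 2 in D1320A, 18, 67 and 0 in D1709A and 43, 139 and 31 in the double mutant.

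Over 28 pairs of groups the deviations of same-numbered libraries correlated at -0.02 to 0.43, and 18 were over 0.1; as not all were, and the labels name no pairing, the number was left out of the tests, although read length follows it. With the replicate block the 5p arm passed in KO against WT (-7.75, adjusted p = 0.0394), and the 5p to 3p ratio passed by limma in D1320A against hsDicer (12.22, adjusted p = 0.0297) and against D1709A (10.36, adjusted p = 0.0207); the number of arms called in KO against WT was 52 with the block and 31 without, in D1320A against hsDicer 18 and 11, and in D1320A against D1709A 20 and 11, and the block ended no miR-140 call.

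With each library left out in turn the 3p values ran from -7.59 to -7.28 in KO against WT, 5.22 to 7.13 in hsDicer against KO, and, against hsDicer, -10.67 to -5.68 in D1320A, -9.86 to -7.95 in the double mutant and -0.15 to 2.26 in K70A, and from -2.20 to -0.30 in hsDicer against WT. For the 5p arm they ran from -3.55 to 6.43 in hsDicer against KO, and, against hsDicer, -0.58 to 9.18 in D1320A, -5.71 to 4.24 in D1709A, -9.92 to 2.38 in the double mutant and -7.95 to 7.94 in Y971A/Y972A, 1.28 to 11.03 in K70A, and -11.05 to -1.29 in hsDicer against WT. The ratios ran from -10.61 to 1.05 in hsDicer against WT, and, against hsDicer, 6.44 to 18.10 in D1320A, -3.93 to 7.73 in D1709A, -0.66 to 10.9996 in the double mutant, -0.73 to 10.93 in K70A and -8.13 to 3.53 in Y971A/Y972A.

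Of 140 end shares under other settings 11 moved by more than their spread. With looser matching the 3p first base at 46 was 30.5% in the double mutant, the 3p last base at 67 was 32.4% in D1320A, 33.7% in K70A and 28.2% in WT, and the 5p last base at 27 was 56.2% in Y971A/Y972A and 69.2% in hsDicer. With a minimum of 5 reads the 3p last base was 31.2% in D1320A, the 5p first base 96.2% in Y971A/Y972A and 98.9% in hsDicer, and the 5p last base 79.8% and 86.4% in these. Of 48 counts of reads past a Dicer site 4 moved. With 1 to 4 adapter bases, an alternative chosen after seeing the data, they were 934 past the 5p site in D1709A and 10333 past the 3p site in D1320A. With 3 nt past the site hsDicer had 40 past the 5p site, and with 8 nt the double mutant had 0 past the 3p site.

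What limits these results is 2 libraries a group, a spread shared by all arms, replicate 1 libraries with few distinct reads, and read lengths that hide the 3′ ends of molecules over 36 or 46 nt. Leaving out hsDicer replicate 1, with 6 reads of the 5p arm, turned the sign of the 5p change in D1320A and of the ratio in hsDicer against WT, D1709A, the double mutant and K70A. Leaving out hsDicer replicate 2 turned the 5p change in hsDicer against KO, D1709A, the double mutant and Y971A/Y972A, and the ratio in Y971A/Y972A.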

Other observations

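Reads of the 3p arm that carried 1 or 2 further bases that do not match the hairpin were counted apart, as values without a test. They made up 16.1% and 22.6% of the 3p reads in Y971A/Y972A cells, 17.5% and 40.6% in K70A, 21.9% and 56.5% in D1709A, 1.90% and 34.5% in hsDicer and 39.7% and 23.3% in WT cells. A single added U led in Y971A/Y972A cells, with 24160 of 24884 and 5215 of 7399 such reads, and in D1709A replicate 2, with 890 of 1147. It was not particular to these cells. It also led in replicate 2 of hsDicer (2122 of 3413), K70A (3450 of 6967), WT (5873 of 10895) and KO cells (65 of 72), and in D1320A replicate 1 (74 of 79). In KO replicate 1 AA led, with 34 of 42. Reads with 1 added U made up 15.6% and 15.9% of the 3p reads in Y971A/Y972A cells, against 0.692% and 21.5% in hsDicer cells. In WT replicate 1 the leading addition was AA, with 11203 of 16289 reads, against 1335 of 10895 in WT replicate 2. On the 5p arm added bases were found in 4.48% and 0.620% of the reads in D1320A cells, 0.348% and 16.4% in K70A and 45.7% and 16.01% in WT cells. Sequencing errors were not told apart from added bases.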
